A study of Mus musculus with 8 samples.

Results

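Receptor tyrosine kinases are membrane proteins that bind a ligand outside the cell and phosphorylate tyrosines inside it. The set described here is 10 receptor genes of epithelial cells, taken by name from the 18102 genes of the deposited expression table: Mst1r, Met, Egfr, Erbb2, Erbb3, Epha1, Epha2, Epha4, Fgfr2 and Pdgfra. All 10 were found, and none had a mean under 10 normalised counts over the 8 libraries, so all 10 were tested. RNA was sequenced from NMuMG, a cell line of normal mouse mammary gland epithelium, in 2 libraries of each of 4 groups. The groups were cells labelled RREB1 KO under TGFβ, the same cells under SB505124, RREB1 WT cells under TGFβ, and WT cells under SB505124. RREB1 is a zinc finger factor that binds DNA elements responsive to RAS. TGFβ was given at 100 pM for 1.5 h. SB505124, which blocks the kinase of the TGFβ type I receptor, was given at 2.5 µM for 6 h. Every group had first been kept without serum for 6 h, in a line grown with 10 µg/mL insulin and 10% serum. The SB505124 libraries therefore come from inhibited rather than untreated cells, and the exposures compared differ in length. All KO columns carry the code KO1, taken here as 1 clone, so what is particular to that clone and what the genotype does cannot be told apart. The labels do not say whether the 2 libraries of a group came from separate cultures, so the tests speak only to the spread among the libraries sequenced.

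Ligand binding brings receptors of this class together in pairs, the kinase domains phosphorylate each other, and adaptors then carry the signal to the RAS-MAPK and PI3K pathways. In mammary epithelium, the EGF and FGF receptors are known for their part in duct growth, the HGF receptor for scattering and branching, and the ephrin receptors for signals between touching cells. TGFβ acts through a separate class of receptors, serine/threonine kinases that activate SMAD factors, and in NMuMG cells it is known to start an epithelial-to-mesenchymal transition.

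Of the 6 members that moved with TGFβ in both genotypes, 3 had the SMAD box CAGAC, on either strand, in their RefSeq promoter window (Mst1r, Epha4 and Pdgfra) and 3 had none (Egfr, Epha2 and Fgfr2). Promoter sequences are shown for 4 of these 6, with and without a box and higher and lower under TGFβ, to give the DNA just before their starts. They are the 250 bases before a start in the RefSeq promoter table, build GRCm38.p6, written 5′ to 3′ on the gene's strand, with the SMAD box capitalised. The windows are chr9:107906639-107906888 (Mst1r, plus strand), chr1:77515089-77515338 (Epha4, minus strand), chr11:16751953-16752202 (Egfr, plus strand) and chr4:141300971-141301220 (Epha2, plus strand). The table's starts are not always the ends of the gene coordinates given further on: the Mst1r and Epha4 windows run a short way into those coordinates.
Mst1r start 1: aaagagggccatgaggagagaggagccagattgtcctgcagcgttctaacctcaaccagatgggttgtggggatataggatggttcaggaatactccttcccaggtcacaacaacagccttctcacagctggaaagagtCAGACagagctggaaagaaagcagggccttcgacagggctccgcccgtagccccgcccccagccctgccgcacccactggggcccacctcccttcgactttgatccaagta
Epha4: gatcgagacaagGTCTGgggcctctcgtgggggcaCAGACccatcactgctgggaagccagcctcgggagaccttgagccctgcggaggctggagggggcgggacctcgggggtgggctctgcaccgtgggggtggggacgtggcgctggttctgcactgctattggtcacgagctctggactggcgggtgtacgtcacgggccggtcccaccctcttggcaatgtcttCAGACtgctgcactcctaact
Egfr: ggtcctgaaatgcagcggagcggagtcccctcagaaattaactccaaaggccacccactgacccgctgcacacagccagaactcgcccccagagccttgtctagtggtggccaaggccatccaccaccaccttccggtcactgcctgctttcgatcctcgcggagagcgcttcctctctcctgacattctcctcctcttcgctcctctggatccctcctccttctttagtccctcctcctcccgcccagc
Epha2: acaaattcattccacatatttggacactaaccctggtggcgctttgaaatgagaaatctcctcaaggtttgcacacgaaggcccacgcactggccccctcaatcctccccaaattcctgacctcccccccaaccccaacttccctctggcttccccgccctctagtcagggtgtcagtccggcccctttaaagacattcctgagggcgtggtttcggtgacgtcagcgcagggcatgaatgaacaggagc
The Mst1r window holds 1 SMAD box, beginning 111 bases before the start, and that of Epha4 has 3, at 238, 215 and 21 bases. The window of a second Mst1r start has 3, at 195, 28 and 7 bases, and that of Pdgfra has 1 at 146 bases. Both of these windows lie inside the gene. Of the other members, Met and Epha1 had 1 SMAD box each, and Erbb2 had none. The Met window also lies inside the gene, and that of Epha1 runs a short way into the gene. In all, 42.2% of 32851 RefSeq promoters of this length held at least 1 such box. The AP-1 site TGANTCA, found in 6.75% of promoters, occurred among the members only in Met, 54 bases before the start. The GC-rich SMAD site GGCGCC, found in 9.59% of promoters, occurred in Met and Epha1. A C-rich motif like that of RREB1, found in 1.91% of promoters, occurred among the members only in Pdgfra, 195 bases before the start. Erbb3 had no entry in the promoter table. A match of letters is a description of the sequence and does not show binding.

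The libraries held 25144204 to 32143113 reads assigned to genes. Smad7, an inhibitory SMAD gene and TGFβ target, averaged 4921 normalised counts under TGFβ and 604 under SB505124 in KO-labelled cells, and 4392 and 671 in WT cells. Rreb1 itself was not lower in the libraries labelled KO: it averaged 2361 against 1864 in WT under TGFβ and 1335 against 1044 in WT under SB505124. Counts over the whole gene cannot check an edit that leaves the transcript in place, and the label is used here as a name. Summed luminal markers (Krt8, Krt18, Krt19, Cdh1, Epcam and Elf5) lay between 172759 and 272013 normalised counts per library. Elf5 itself had only 0 to 4 reads in each library. Basal (19.02 to 89.0), endothelial (4.32 to 41.1), adipocyte (8.66 to 21.4) and leukocyte (160 to 224) markers were far lower. The KO-labelled libraries also stood apart in markers: the epithelial adhesion gene Epcam and the basal keratin gene Krt14 had no reads there. In WT cells Epcam had 55 reads under TGFβ and 12 under SB505124, and Krt14 had 77 and 9. The basal keratin gene Krt5 ran the other way, with 142 reads under TGFβ and 156 under SB505124 in KO-labelled cells, and 5 and 1 in WT cells. Over all 12498 tested genes, 56.9% differed between KO-labelled and WT cells under SB505124 and 62.9% under TGFβ.

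Mst1r and Met encode the receptors of MSP and HGF, a pair of related growth factors that make epithelial cells scatter and migrate. Mst1r (also called Ron; chr9:107906858-107920383) had the largest response to TGFβ of the 10 members in each genotype. It stood at 2506 and 2507 normalised counts in the KO-labelled TGFβ libraries, and at 93.1 and 136 in the KO-labelled SB505124 libraries. In WT it stood at 7683 and 6467 under TGFβ and at 1144 and 967 under SB505124. All TGFβ libraries lay above all SB505124 libraries, and within each treatment both KO-labelled libraries lay below both WT libraries. The log2 fold change under TGFβ was 4.47 ± 0.13 in KO-labelled cells (SE from the fit of all 8 libraries, n = 2 against 2, limma adjusted p = 4.33e-15), a 22.1-fold rise. In WT it was 2.74 ± 0.13 (limma adjusted p = 9.33e-12), a 6.69-fold rise. These folds are on the scale of log2(normalised count + 1), which understates the change of low genes. The log2 response was larger in KO-labelled cells by 1.72 ± 0.19 (95% interval 1.33 to 2.12, limma adjusted p = 3.92e-05) and did not pass without the variance trend (0.0686). In normalised counts the rise was smaller in KO-labelled cells, with group means going from 114 to 2506, against 1056 to 7075 in WT cells. Mst1r was 2.81-fold lower in KO-labelled than in WT cells under TGFβ and 9.29-fold lower under SB505124 (log2 -1.49 and -3.22, limma adjusted p = 1.69e-08 and 2.61e-13). The KO-labelled level under SB505124 rested on 257 reads over both libraries, with an exact Poisson 95% interval of 227 to 290. In bulk RNA, fewer cells that express a gene and less RNA of it per cell cannot be told apart, here and in what follows. Of the 5 tested genes within 100 kb of Mst1r, 1 rose with TGFβ in each genotype (Traip, 0.95 in KO-labelled and 0.87 in WT cells on the log2 scale). None of the 5 differed in response between the genotypes past the threshold.

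**Figure D1:**
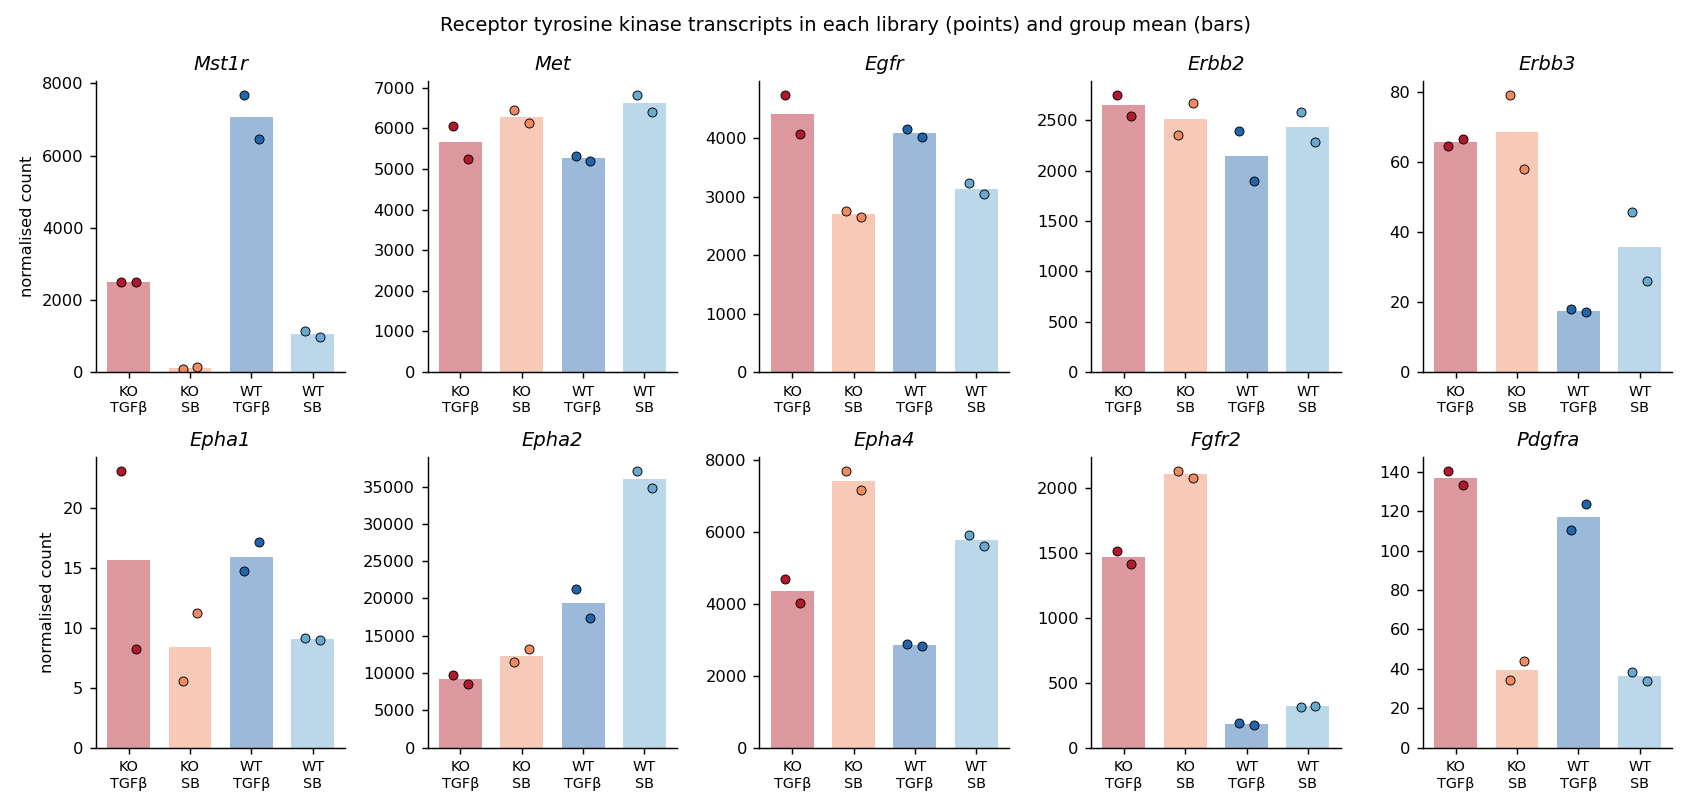
Normalised counts (y axis, each panel with its own scale from 0) of the 10 receptor genes in the KO-labelled and WT groups under TGFβ and SB505124; points are libraries and bars are the means of 2. Mst1r and Pdgfra stand higher under TGFβ in both genotypes, Epha4 stands lower, and Fgfr2 is far higher in both KO-labelled groups.

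Met (chr6:17463349-17573980) changed little. Its normalised counts were 6067 and 5251 in KO-labelled cells under TGFβ, against 6437 and 6133 under SB505124. In WT cells they were 5323 and 5191 under TGFβ, against 6821 and 6407 under SB505124. The TGFβ and SB505124 libraries do not overlap in either genotype. In WT cells Met fell by 0.33 ± 0.08 (log2, SE, limma adjusted p = 0.00338) with TGFβ. The adjusted p was 0.0586 without WT SB505124 replicate 1, which ends that call. In KO-labelled cells the change of -0.15 did not pass (limma adjusted p = 0.169), and the difference between the genotypes' responses was 0.18 (95% interval -0.07 to 0.42). KO-labelled and WT cells differed in Met by 0.10 (95% interval -0.07 to 0.28) under TGFβ and by -0.07 (95% interval -0.25 to 0.10) under SB505124. Neither value passed the threshold.

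Egfr, Erbb2 and Erbb3 belong to the EGF receptor family, whose members signal as pairs of like or unlike receptors. Egfr (chr11:16752203-16913907) binds EGF, TGFα and amphiregulin. It stood at 4744 and 4080 normalised counts in KO-labelled cells under TGFβ and at 2764 and 2652 under SB505124. The WT values were 4159 and 4021 under TGFβ and 3235 and 3044 under SB505124. All 4 TGFβ libraries lay above all 4 SB505124 libraries. Egfr rose 1.62-fold in KO-labelled cells (log2 0.70 ± 0.08, limma adjusted p = 2.31e-06) and 1.30-fold in WT cells (0.38 ± 0.08, limma adjusted p = 0.00117). The responses differed by 0.32 (95% interval 0.07 to 0.57), which did not pass after adjustment over all genes (limma adjusted p = 0.169). Under SB505124, Egfr was lower in KO-labelled cells by 0.21 (log2 -0.21 ± 0.08, limma adjusted p = 0.036). That call was lost when any 1 of the 4 SB505124 libraries was left out (adjusted p between 0.0581 and 0.225), without the filter on low values (0.0614) and without a variance trend (0.0984). Under TGFβ the difference between KO-labelled and WT cells was 0.11 and did not pass (limma adjusted p = 0.282).

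Erbb2 (chr11:98412484-98437716), the family member with no known ligand of its own, stood at 2751 and 2544 normalised counts in KO-labelled cells under TGFβ and at 2350 and 2667 under SB505124. In WT cells it stood at 2394 and 1893 under TGFβ and at 2578 and 2285 under SB505124. The TGFβ and SB505124 values overlap in both genotypes. The TGFβ response was 0.08 (95% interval -0.14 to 0.30) in KO-labelled cells and -0.19 (95% interval -0.41 to 0.03) in WT cells, and neither passed. Without WT TGFβ replicate 1, the WT response became -0.36 (limma adjusted p = 0.0062) and the difference of responses 0.44 (limma adjusted p = 0.0369). Under TGFβ, Erbb2 was 1.24-fold higher in KO-labelled than in WT cells (log2 0.31 ± 0.10, limma adjusted p = 0.013). The adjusted p was 0.112 without KO TGFβ replicate 1, 0.227 without WT TGFβ replicate 2 and 0.0895 without a variance trend. An exon of Erbb2 overlaps one of Mien1 on the opposite strand, and the library kit named in the labels keeps no strand information. Reads of the shared stretch therefore cannot be assigned to one gene. Mien1 differed by 0.41 (log2) between KO-labelled and WT cells with SB505124 (limma adjusted p = 0.00133). With TGFβ the difference was 0.08 (limma adjusted p = 0.474). Its part in the Erbb2 values was not tested.

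Erbb3 (chr10:128567523-128589635), the neuregulin receptor with a weak kinase of its own, was lowly expressed and higher in KO-labelled cells. It had 64.5 and 66.6 normalised counts in KO-labelled cells under TGFβ, against 17.9 and 17.1 in WT cells under TGFβ. Under SB505124 it had 79.1 and 57.9 in KO-labelled cells, against 45.6 and 26.0 in WT cells. Every KO-labelled library lay above every WT library. Erbb3 was 3.59-fold higher in KO-labelled cells under TGFβ (log2 1.85 ± 0.28, limma adjusted p = 1.22e-05) and 1.93-fold higher under SB505124 (0.95 ± 0.28, limma adjusted p = 0.00656). The call under SB505124 was lost without KO SB505124 replicate 1 (limma adjusted p = 0.0882) and without WT SB505124 replicate 2 (limma adjusted p = 0.134). With TGFβ, Erbb3 fell by 0.94 ± 0.28 in WT cells (log2, limma adjusted p = 0.0104), a call that rested on WT SB505124 replicate 1 (0.193 without it). In KO-labelled cells the change was -0.05 (95% interval -0.63 to 0.54). The difference of responses, 0.89 ± 0.39, did not pass (limma adjusted p = 0.255). The WT TGFβ level rests on 32 reads over both libraries, with an exact Poisson 95% interval of 21.9 to 45.2.

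The Eph receptors bind ephrins, ligands held on the surface of neighbouring cells, and the 3 Eph members differed widely in level. Epha2 (chr4:141301221-141329384) was the highest of the 10 per kilobase in every group. It stood at 9768 and 8589 normalised counts in KO-labelled cells under TGFβ and at 11486 and 13175 under SB505124. WT cells had 21260 and 17403 under TGFβ and 37137 and 34838 under SB505124. TGFβ and SB505124 libraries do not overlap in either genotype, and every KO-labelled library lay below every WT library. Epha2 fell with TGFβ by 0.90 ± 0.10 in WT cells (log2, limma adjusted p = 1.42e-06) and by 0.43 ± 0.10 in KO-labelled cells (limma adjusted p = 0.0038). The KO-labelled call was lost without KO TGFβ replicate 2 (0.0820) and without a variance trend (0.0598). The difference of responses, 0.48 ± 0.15, did not pass (limma adjusted p = 0.0893). It passed in DESeq2 (adjusted p = 0.0461), without KO SB505124 replicate 2 (limma adjusted p = 0.0382) and without WT TGFβ replicate 1 (limma adjusted p = 0.00438).

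KO-labelled cells had 2.92-fold less Epha2 than WT cells under SB505124 (log2 -1.55 ± 0.10, limma adjusted p = 2.96e-10) and 2.10-fold less under TGFβ (-1.07 ± 0.10, limma adjusted p = 4.74e-08). Epha2 lies on chromosome 4, whose 714 tested genes had a median log2 ratio of KO-labelled to WT of -0.69 under SB505124 and -0.68 under TGFβ. The medians of chromosomes other than 4 and 14 lay between -0.05 and 0.26 under SB505124, and between -0.07 and 0.29 under TGFβ. Relative to the median of its own chromosome, Epha2 was lower by -0.86 on the log2 scale with SB505124 (limma adjusted p = 1.1e-06). With TGFβ the value was -0.39 (limma adjusted p = 0.00306). Of 3 tested genes within 100 kb of Epha2, 2 were lower and 1 higher in KO-labelled cells under both treatments. The lower genes were Arhgef19 (log2 -5.23 under TGFβ and -5.35 under SB505124) and Fbxo42 (-0.43 and -0.55). The higher gene was Fam131c (0.64 and 0.81). None of the other 9 members lies on chromosome 4 or 14.

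Epha4 (chr1:77367182-77515107) fell with TGFβ in both genotypes. Its normalised counts were 4698 and 4028 in KO-labelled cells under TGFβ and 7714 and 7162 under SB505124. They were 2893 and 2825 in WT cells under TGFβ and 5925 and 5613 under SB505124. Within each treatment the KO-labelled libraries lay above the WT libraries, and within each genotype the TGFβ libraries lay below the SB505124 libraries. The fall was 1.71-fold in KO-labelled cells (log2 -0.77 ± 0.08, limma adjusted p = 7.37e-07) and 2.02-fold in WT cells (-1.01 ± 0.08, limma adjusted p = 2.33e-08). The responses differed by 0.24 (95% interval -0.01 to 0.49), which did not pass. KO-labelled cells had more Epha4 under both treatments, by 0.61 ± 0.08 (log2, limma adjusted p = 4.94e-06) with TGFβ and by 0.37 ± 0.08 (limma adjusted p = 0.00108) with SB505124. These 4 calls held under all the alternatives run.

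Epha1 (chr6:42358487-42373314), the founding member of the Eph family, had the fewest reads of the 10. It had 23.1 and 8.20 normalised counts in KO-labelled cells under TGFβ, 5.58 and 11.2 in KO-labelled cells under SB505124, 14.7 and 17.1 in WT cells under TGFβ and 9.12 and 9.01 in WT cells under SB505124. The KO-labelled groups overlap each other, and the WT groups do not. The groups held 18 to 32 reads each. None of the 5 contrasts passed, and their intervals were wide: the TGFβ response lay between -0.29 and 1.75 in KO-labelled cells and between -0.27 and 1.77 in WT cells (95% intervals, log2). An exon of Epha1 overlaps one of Zyx on the opposite strand, a gene that rose with TGFβ by 1.10 in KO-labelled and 0.62 in WT cells. Without strand, reads of the shared stretch cannot be told apart.

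Fgfr2 encodes a receptor for fibroblast growth factors whose epithelial splice form is known to answer ligands from the surrounding stroma. Counts over the whole gene do not separate its splice forms. Fgfr2 (chr7:130162451-130266808) showed the largest difference between genotypes among the members that were higher in KO-labelled cells. It stood at 1517 and 1418 normalised counts in KO-labelled cells under TGFβ, against 193 and 176 in WT cells under TGFβ. Under SB505124 it stood at 2135 and 2082 in KO-labelled cells, against 313 and 322 in WT cells. Every KO-labelled library lay above every WT library, with a wide gap between them. The log2 ratio of KO-labelled to WT was 2.99 ± 0.10 under TGFβ (7.93-fold, limma adjusted p = 6.32e-15) and 2.73 ± 0.10 under SB505124 (6.62-fold, limma adjusted p = 2.44e-14). TGFβ lowered Fgfr2 in both genotypes, 1.44-fold in KO-labelled cells (log2 -0.52 ± 0.10, limma adjusted p = 0.000319) and 1.72-fold in WT cells (-0.78 ± 0.10, limma adjusted p = 3.06e-06). The responses differed by 0.26 (95% interval -0.02 to 0.54), which did not pass. One long transcript annotated to Fgfr2 shares an exon on the same strand with Ctbp2, whose reads there cannot be told apart. Ctbp2 differed between KO-labelled and WT cells by 0.14 under TGFβ (log2, limma adjusted p = 0.137) and by 0.20 under SB505124 (limma adjusted p = 0.0323). No tested gene lies within 100 kb of Fgfr2, Epha4 or Pdgfra.

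Pdgfra encodes the PDGF receptor alpha, found mainly on mesenchymal cells and used here also as a fibroblast marker. Pdgfra (chr5:75151322-75198206) was low in every group and rose with TGFβ in both genotypes. It had 141 and 133 normalised counts in KO-labelled cells under TGFβ and 34.4 and 44.0 under SB505124. WT cells had 110.5 and 123 under TGFβ and 38.5 and 34.04 under SB505124. All TGFβ libraries lay above all SB505124 libraries, and KO-labelled and WT values overlap under SB505124 but not under TGFβ. The rise was 3.45-fold in KO-labelled cells (log2 1.79 ± 0.20, limma adjusted p = 1.12e-06) and 3.17-fold in WT cells (1.66 ± 0.20, limma adjusted p = 2.78e-06). The responses differed by 0.12, with a 95% interval of -0.47 to 0.72. Neither ratio of KO-labelled to WT passed, at 0.23 (95% interval -0.19 to 0.65) under TGFβ and 0.10 (95% interval -0.32 to 0.52) under SB505124. The summed level of the 7 fibroblast markers moved with TGFβ as well, at 380 to 384 normalised counts under TGFβ and 46.5 to 61.3 under SB505124 in KO-labelled cells, and at 513 to 669 and 161 to 164 in WT cells. Pdgfra is itself one of these 7, and under TGFβ most of the sum came from Col1a1 and Pdgfra. The collagen gene Col1a1 was higher under TGFβ, at 243 and 231 normalised counts against 11.2 and 15.5 under SB505124 in KO-labelled cells, and at 498 and 349 against 37.5 and 33.0 in WT cells. The fibroblast marker Dcn, the gene of decorin, had 58.9 and 38.9 in WT cells under TGFβ, against 86.2 and 94.1 in WT cells under SB505124. In KO-labelled cells Dcn had no reads under TGFβ and 1 under SB505124. The part of these markers in the Pdgfra values was not tested. The fibroblast markers Lum and Thy1 had at most 1 read in any group, and Pdgfrb at most 2. Col1a2 had 13 reads in KO TGFβ replicate 2 and at most 1 in any other library. Transcripts of the opposite strand and the microRNA gene Mir7025 on the same strand overlap Pdgfra exons, and their reads are not separated.

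**Figure D2:**
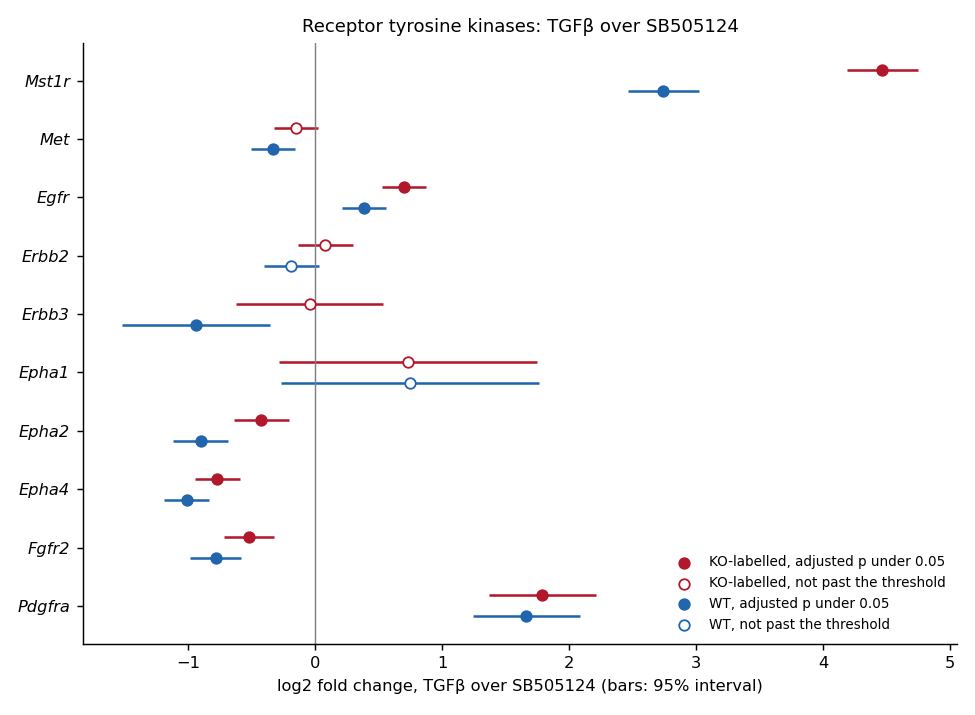
Log2 fold change of TGFβ over SB505124 (x axis) for the 10 receptor genes, in KO-labelled (red) and WT (blue) cells; bars are 95% intervals of the limma fit and filled points passed an adjusted p of 0.05. Mst1r and Pdgfra lie furthest to the right in both genotypes, and only the Mst1r responses differ between genotypes past the threshold.

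Counted together, 6 of the 10 members passed for TGFβ in KO-labelled cells, 3 higher (Mst1r, Egfr and Pdgfra) and 3 lower (Epha2, Epha4 and Fgfr2), where 30.9% of all tested genes passed (15.1% higher and 15.8% lower). In WT cells 8 of 10 passed, the same 6 in the same directions plus lower Met and Erbb3, where 43.3% of all tested genes passed (20.2% higher and 23.2% lower). The median log2 response of the 10 was 0.02 in KO-labelled and -0.26 in WT cells, against -0.02 and -0.01 over all tested genes. Only Mst1r passed for the difference of responses (1 of 10), where 2.82% of all tested genes did (2.25% with a higher response in KO-labelled cells). Without WT TGFβ replicate 1, Epha2 and Erbb2 passed too (3 of 10), and without KO SB505124 replicate 2 Epha2 did (2 of 10). Both responses share their libraries with that difference. Between genotypes, 6 of 10 passed under TGFβ (Erbb2, Erbb3, Epha4 and Fgfr2 higher in KO-labelled cells, Mst1r and Epha2 lower) and 6 of 10 under SB505124 (Erbb3, Epha4 and Fgfr2 higher, Mst1r, Egfr and Epha2 lower). The shares over all tested genes were 62.9% under TGFβ (32.7% higher and 30.2% lower) and 56.9% under SB505124 (29.2% higher and 27.7% lower), and the members' counts lie near the background in these comparisons. The members' median ratio was 0.17 under TGFβ and -0.01 under SB505124, against 0.01 and 0.01 over all tested genes.

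**Figure D3:**
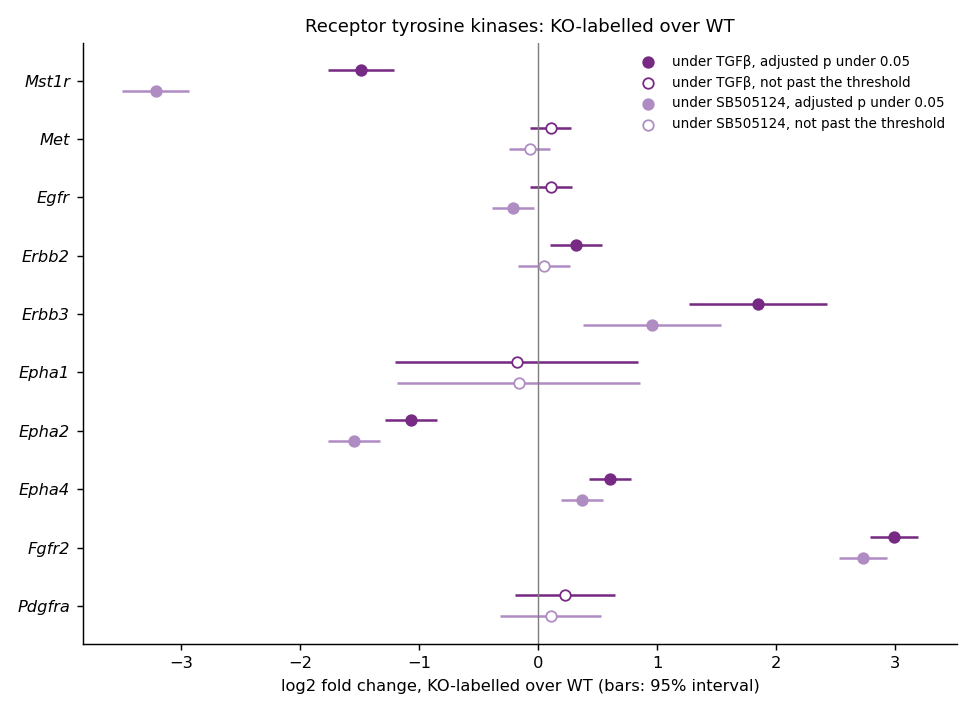
Log2 ratio of KO-labelled to WT (x axis) for the 10 receptor genes, under TGFβ (dark) and SB505124 (light); bars are 95% intervals and filled points passed an adjusted p of 0.05. Fgfr2 lies near 3 and Mst1r at -1.49 and -3.22, while Met and Pdgfra lie near 0 under both treatments.

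Levels were compared between genes per kilobase of the longest coding transcript. Epha2 came first in all 4 groups, at 2346 ± 213 in KO-labelled cells under TGFβ, 3151 ± 305 in KO-labelled cells under SB505124, 4940 ± 697 in WT cells under TGFβ and 9197 ± 415 in WT cells under SB505124 (normalised counts per kilobase, SD, n = 2). Its share of the summed level of the 10 was 40.9% ± 0.379 in KO-labelled cells under TGFβ and 48.1% ± 2.85 under SB505124, and 57.6% ± 1.53 in WT cells under TGFβ and 75.5% ± 0.156 under SB505124. The summed level itself was 5734 ± 468 in KO-labelled cells under TGFβ and 6548 ± 246 under SB505124. In WT cells it was 8558 ± 981 under TGFβ and 12184 ± 575 under SB505124. The member in second place changed with the group. It was Met in KO-labelled cells under TGFβ (831 ± 84.7) and in WT cells under SB505124 (971 ± 42.9). In KO-labelled cells under SB505124 it was Epha4 (1175 ± 61.6), and in WT cells under TGFβ it was Mst1r (1498 ± 182). Mst1r took a share of 9.29% ± 0.759 in KO-labelled cells under TGFβ and 0.368% ± 0.0834 under SB505124, and 17.5% ± 0.121 in WT cells under TGFβ and 1.83% ± 0.131 under SB505124. The share of Fgfr2 was 5.95% ± 0.201 under TGFβ and 7.48% ± 0.415 under SB505124 in KO-labelled cells, against 0.501% ± 0.0256 and 0.606% ± 0.0410 in WT cells. Erbb3, Epha1 and Pdgfra filled the last 3 places in all 4 groups, none above 20.03 normalised counts per kilobase. Adjacent members whose libraries overlapped were Mst1r and Erbb2 in KO-labelled cells under TGFβ, Erbb2 and Fgfr2 in KO-labelled cells under SB505124, Epha4, Erbb2 and Egfr in WT cells under TGFβ, and Erbb3 and Pdgfra in WT cells under SB505124.

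**Figure D4:**
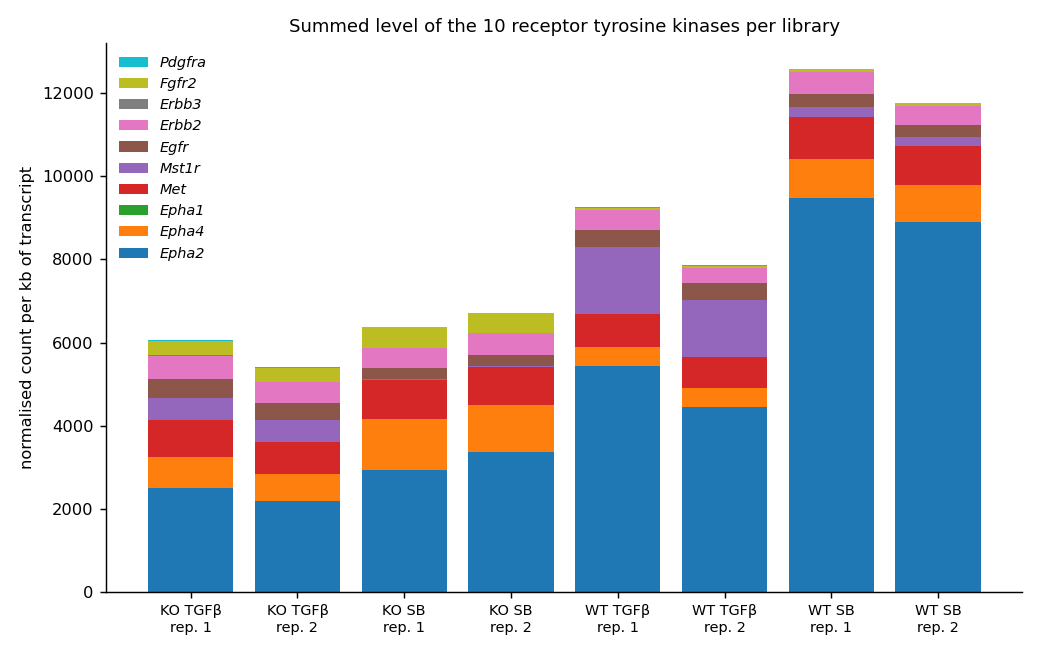
Summed level of the 10 receptor genes per library (y axis, normalised counts per kilobase of transcript), stacked by gene in the order of the legend, for the 2 libraries of each group. Epha2 fills most of each WT column, the Mst1r segment is widest in WT cells under TGFβ, and Fgfr2 is visible mainly in KO-labelled cells.

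The ligands of these receptors were measured in the same libraries. Of the HGF and MSP group, Hgf had 1 read in all 8 libraries together, and Mst1, the gene of MSP, averaged 4.46 normalised counts in KO-labelled and 16.4 in WT cells under TGFβ, and 7.51 and 19.7 under SB505124. Mst1 did not pass for TGFβ in either genotype and was lower in KO-labelled than in WT cells (log2 -1.67 under TGFβ and -1.35 under SB505124, limma adjusted p = 0.00384 and 0.0167). Of the 4 tested genes of this group, 2 rose with TGFβ in both genotypes. They were Hgfac, an activator of pro-HGF (0.85 in KO-labelled and 0.67 in WT cells, log2), and Spint2, an inhibitor of such activators (0.34 and 0.33). Of all tested genes, 15.1% rose in KO-labelled and 20.2% in WT cells.

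Among 9 tested EGF family ligands, 3 rose and 2 fell with TGFβ in KO-labelled cells and 2 rose and 2 fell in WT cells. Of all tested genes, 15.1% rose and 15.8% fell in KO-labelled cells, and 20.2% rose and 23.2% fell in WT cells. The list's median was -0.24 in KO-labelled and -0.14 in WT cells (log2). Areg, the gene of amphiregulin, averaged 3222 ± 68.9 normalised counts under TGFβ and 1253 ± 132 under SB505124 in KO-labelled cells, and 4747 ± 36.0 and 2764 ± 11.8 in WT cells (SD, n = 2 each). It rose in both genotypes (1.37 and 0.78). Ereg, the gene of epiregulin, and Btc, that of betacellulin, passed in KO-labelled cells at 0.59 and 0.34, and stood at 0.12 and 0.04 in WT cells without passing. The difference between these responses passed for Ereg (0.47, limma adjusted p = 0.0354) and did not pass for Btc (0.29, limma adjusted p = 0.281). Nrg1, a neuregulin that binds Erbb3, fell in both genotypes (-0.63 in KO-labelled and -0.54 in WT cells). Hbegf fell in KO-labelled cells (-0.24, limma adjusted p = 0.0322) and rose in WT cells (0.21, limma adjusted p = 0.0473), both close to the threshold. Tgfa, Egf and Nrg4 did not pass in either genotype, and Nrg2 fell in WT cells (-0.65) and stood at -0.36 in KO-labelled cells without passing. The difference of 0.29 between the Nrg2 responses did not pass (limma adjusted p = 0.695).

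All 8 ephrins were tested, and 5 rose with TGFβ in each genotype: Efna1, Efna2, Efna3, Efna4 and Efnb1. The share of all tested genes that rose was 15.1% in KO-labelled and 20.2% in WT cells. The list's median log2 response was 0.84 in KO-labelled and 1.00 in WT cells, against -0.02 and -0.01 over all tested genes. Efnb1 averaged 4605 normalised counts under TGFβ and 942 under SB505124 in KO-labelled cells, and 2329 and 613 in WT cells, log2 responses of 2.29 and 1.91. Efna1 averaged 1979 and 556 in KO-labelled cells, and 2935 and 1196 in WT cells, responses of 1.83 and 1.29. Efnb2 fell in both genotypes (-0.28 and -0.70). Efna5 fell in WT cells (-0.23) and stood at -0.19 in KO-labelled cells without passing, and the difference of 0.05 between these did not pass either.

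Of the 4 PDGF genes, 3 rose with TGFβ in KO-labelled cells and 2 in WT cells, against 15.1% and 20.2% of all tested genes. Pdgfa, whose product binds the receptor encoded by Pdgfra, rose by 2.47 in KO-labelled and 2.14 in WT cells, and Pdgfb by 1.89 and 2.15 (log2). Pdgfc rose in KO-labelled cells (0.32) and stood at 0.12 in WT cells without passing, and the difference of 0.20 between these did not pass either. Of 9 FGF genes, only Fgf1 and Fgf18 had enough reads to test. Fgf18 rose in both genotypes (1.07 in KO-labelled and 1.10 in WT cells). Fgf1 averaged 3448 under TGFβ and 4162 under SB505124 in KO-labelled cells, against 1122 and 790 in WT cells. Like Fgfr2, whose product it binds, Fgf1 was higher in KO-labelled than in WT cells under both treatments (log2 1.62 under TGFβ and 2.40 under SB505124, limma adjusted p = 6.41e-12 and 1.96e-14).

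**Figure D5:**
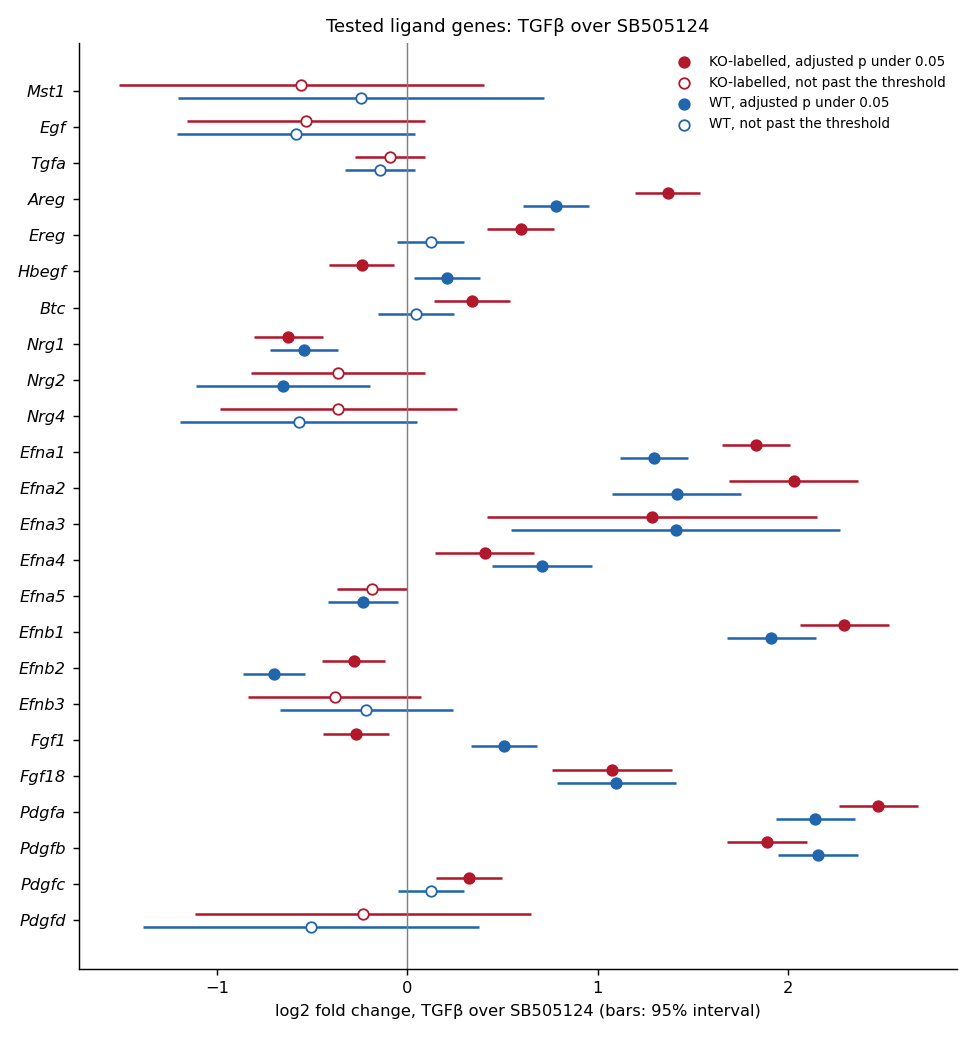
Log2 fold change of TGFβ over SB505124 (x axis) for the tested ligand genes of these receptors, in KO-labelled (red) and WT (blue) cells; bars are 95% intervals and filled points passed an adjusted p of 0.05. Efna1, Efna2, Efna3, Efnb1, Fgf18, Pdgfa and Pdgfb lie above 1 in both genotypes, while Fgf1 and Hbegf lie on opposite sides of 0.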

How the data were processed

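The data are RNA sequencing of 8 libraries in 4 groups of 2, from a TruSeq RNA v2 kit, per the labels' protocols. The deposited table gives a signal per gene in each library, made by the authors from read counts scaled with size factors. The submitters' processing notes name the build mm10 and the tools HTSeq 0.6.1p1, FastQC 0.11.5 and DESeq2 3.4, and the aligner is not given in the sources used here. Within a library, 100% of the values came out as whole multiples of the value of 1 read, to within 0.01 reads. This gave the reads behind each value and size factors of 0.875 to 1.16. The reads were used for depth, for counting intervals and in the count tests tried as alternatives.

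Testing covered the 12498 of 18102 genes whose mean was at least 10. With limma 3.58.1 in R 4.3.3, means of the 4 groups were estimated on log2(value + 1) from all 8 libraries together, using a variance trend. Benjamini-Hochberg adjustment ran over the tested genes of each contrast, and the threshold was 0.05. Alternatives are given in the closing section and included edgeR 4.0.16 and DESeq2 1.42.0 on recovered reads. Intervals on reads cover counting error only, and bounds for groups without reads use 3 reads over the group. Gene coordinates, promoters and lengths come from RefSeq GRCm38.p6 and GENCODE M21, the same build as mm10, in which 94.7% of the table's symbols were found. Levels per kilobase use the longest coding transcript.

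The members and gene lists were chosen with earlier results of these data known, so no count of theirs is independent support. The 10 members were named whatever their values. Of each list of ligands, other receptors, adaptors, inhibitors and sheddases, every ligand and otherwise the 2 genes with the smallest p per contrast could be named. Neighbouring and overlapping genes were named for their position, and marker genes from the marker lists. Protein features that had been planned were not computed.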

Additional observations from a re-analysis of the deposited data

Results flagged for a closer look

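Of the 115 tested receptors and listed genes around them, 11 (9.57%) had a response to TGFβ that differed between KO-labelled and WT cells past the threshold in a direct test of the difference (limma, KO minus WT, log2). Over all 12498 tested genes, 352 did (2.82%), and 47 without a variance trend. The lists were chosen with earlier results known, so both shares are given as a description. Mst1r differed by 1.72 and is described above. Areg, an EGF receptor ligand gene, differed by 0.59 (1.37 in KO-labelled and 0.78 in WT cells, limma adjusted p = 0.00694). Ereg, another such ligand gene, differed by 0.47 (0.59 and 0.12, limma adjusted p = 0.0354). Hbegf differed by -0.45 (limma adjusted p = 0.043), falling in KO-labelled cells (-0.24, limma adjusted p = 0.0322) and rising in WT cells (0.21, limma adjusted p = 0.0473). Efna1 differed by 0.54 (1.83 and 1.29, limma adjusted p = 0.0174) and Efnb2 by 0.42 (-0.28 and -0.70, limma adjusted p = 0.0485). Fgf1 differed by -0.78, with -0.27 in KO-labelled and 0.51 in WT cells (limma adjusted p = 0.000701). Cblb, a ubiquitin ligase that removes activated receptors, differed by 0.72, with 0.43 in KO-labelled and -0.29 in WT cells (limma adjusted p = 0.00103). The receptor genes Epha7 and Ror1 differed by 0.68 (-0.69 and -1.37, limma adjusted p = 0.043) and 0.81 (0.32 and -0.49, limma adjusted p = 0.0154). The adaptor gene Shc1 differed by 0.42 (0.11 and -0.31, limma adjusted p = 0.0386). Among these genes, values under the alternatives of the next section are given only for Mst1r. The causes of these differences were not tested.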

How the results depend on the processing

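For the 10 receptors, 50 values (5 contrasts each) were recomputed under up to 19 alternatives, 900 recomputed values in all. Of these, 864 kept their direction and their side of the threshold, 16 lost the call, 5 gained it and 15 changed sign. None of the values that changed sign had passed. On the log2 scale they were the difference of responses of Epha1 (0.081 in edgeR, 0.083 in DESeq2, and -0.71 to 0.68 with a library left out) and, with a library left out, 9 further values. These were the difference of responses of Pdgfra (-0.049 to 0.30), the ratios of KO-labelled to WT under TGFβ of Egfr (-0.0032 to 0.21), Met (-0.0016 to 0.21) and Epha1 (-0.88 to 0.51), and those under SB505124 of Epha1 (-0.61 to 0.28), Pdgfra (-0.071 to 0.28) and Erbb2 (-0.046 to 0.14). The remaining values were the TGFβ responses in KO-labelled cells of Erbb2 (-0.012 to 0.17) and Erbb3 (-0.27 to 0.18).

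For the difference of responses, the receptors called numbered 0 without a variance trend, 2 in DESeq2 and 1 to 3 with a library left out. Over all genes that count was 352, against 134 without the filter on low values, 47 without a variance trend, 418 in edgeR and 418 in DESeq2. It was 141 to 1027 with a library left out: 1027 without WT TGFβ replicate 1, 150 without KO TGFβ replicate 1, 141 without WT SB505124 replicate 1 and 168 without WT SB505124 replicate 2. For TGFβ in KO-labelled cells the count over all genes was 3864, and 2320 to 4410 with a library left out, lowest without KO TGFβ replicate 2 and 2332 without KO SB505124 replicate 1. The cause of these shifts was not tested.

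The main fit used no replicate block, and whether equal replicate numbers mark paired libraries was not settled. The differences between replicates 1 and 2 correlated across genes at 0.10 between the KO-labelled groups and 0.20 between the WT groups. Between genotypes they correlated at -0.03 under TGFβ and -0.05 under SB505124. For groups unlike in both genotype and treatment, the values were -0.20 (KO SB505124 with WT TGFβ) and -0.03 (KO TGFβ with WT SB505124). A fit with the replicate number as a block called 6, 8, 1, 6 and 6 receptors for TGFβ in KO-labelled cells, TGFβ in WT cells, the difference, and KO-labelled against WT under TGFβ and under SB505124, and 252 genes for the difference over all genes. The fit of only the libraries compared cannot be made for the difference of responses, and values relative to the chromosome median were computed for KO-labelled against WT only. Epha1, with 18 to 32 reads per group, is limited by depth.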

Other observations

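Over all tested genes, 15.1% were higher and 15.8% lower with TGFβ in KO-labelled cells, and 20.2% and 23.2% in WT cells. Between genotypes, 32.7% were higher and 30.2% lower in KO-labelled cells under TGFβ, and 29.2% and 27.7% under SB505124. The counts in the lists here are to be read against these shares. Other receptor tyrosine kinase genes of the table, 25 of which had enough reads to test, showed 7 rises and 2 falls with TGFβ in KO-labelled cells and 5 rises and 7 falls in WT cells. Their median log2 response was 0.06 in KO-labelled and -0.10 in WT cells. Fgfr1, a further FGF receptor gene, rose in both genotypes (2.20 and 1.92) at low levels, 18.3 under TGFβ against 3.52 normalised counts under SB505124 in KO-labelled cells and 81.7 against 20.7 in WT cells. Tyro3, a receptor of the TAM family, also rose in both (1.21 and 0.84). Between genotypes, 9 of 25 were higher and 10 lower in KO-labelled cells under TGFβ, and 6 were higher and 13 lower under SB505124. Ephb3, another ephrin receptor gene, had 0 reads in KO-labelled cells under TGFβ and 364 in WT cells, at least 134-fold lower in KO-labelled cells (bound from 3 reads over the group). Under SB505124 it had 1 read in KO-labelled cells and 382 in WT cells, a ratio of WT to KO-labelled of 429.5 with a counting interval of 76.6 to 17010. Ptk7, a receptor with an inactive kinase domain, averaged 9.49 normalised counts in KO-labelled and 359 in WT cells under TGFβ, and 11.2 and 351 under SB505124.

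Of 26 adaptor and proximal signalling genes, 4 rose and 5 fell with TGFβ in KO-labelled cells and 4 rose and 10 fell in WT cells. For each list in this paragraph, the shares of all tested genes were 15.1% rising and 15.8% falling in KO-labelled cells. In WT cells they were 20.2% and 23.2%. Grb7, which binds ERBB2, fell by 0.81 in KO-labelled and 1.01 in WT cells (log2), and Pik3r1, a PI3K regulatory subunit, by 0.83 and 0.85. Between genotypes, 17 of the 26 were higher and 3 lower in KO-labelled cells under TGFβ (median 0.27), and 9 were higher and 2 lower under SB505124 (median 0.17). Of all tested genes, 32.7% were higher and 30.2% lower under TGFβ, and 29.2% and 27.7% under SB505124. Shc2 stood 1.44 higher under TGFβ and 1.41 higher under SB505124. Of 19 genes that restrain receptors, 2 rose and 6 fell with TGFβ in KO-labelled cells, and none rose and 8 fell in WT cells. Cbl, a ubiquitin ligase for activated receptors, fell by 0.77 in KO-labelled and 1.11 in WT cells, and Socs5 by 0.64 and 0.81. Cbl was 1.80 higher in KO-labelled than in WT cells under TGFβ and 1.46 higher under SB505124. Lrig3 had no reads in KO-labelled cells and 104 and 95 reads in WT cells under TGFβ and SB505124, at least 38.3-fold and 35.6-fold lower. Of 8 tested sheddases and their cofactors, which free receptor ligands from the membrane, 5 rose and 0 fell in KO-labelled cells, and 4 rose and 3 fell in WT cells. Adam8 rose by 0.81 and 0.29 and Rhbdf1 by 0.87 and 0.54. Adam17, the main enzyme for several EGF family ligands, fell in WT cells (-0.42) and stood at -0.17 in KO-labelled cells without passing. None of these 8 genes differed in response between the genotypes past the threshold.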
